A study of Bos taurus with 33 samples.

Results

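The oocyte transcription factors described here were 7 genes that act in the germ line of the ovary, NOBOX, FIGLA, SOHLH1, SOHLH2, LHX8, POU5F1 and TBPL2. They were taken by name, with no measured value in the rule, although earlier results of these data were known, and were looked up by symbol in a table of 16279 genes measured in oocytes and a table of 16244 genes measured in cumulus cells (CC), the somatic cells that surround the oocyte, with both tables joined by Ensembl gene identifier. The oocyte table listed 5 of the 7 genes, and the CC table listed 2 of them, NOBOX and TBPL2. SOHLH1 and SOHLH2 had no row under their symbols in either table, so their levels were not analysed here.

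The study compared RNA from cumulus-oocyte complexes of suckled, postpartum, Hereford-Angus crossbred beef cows (Bos taurus), collected by aspiration of the preovulatory follicle about 23 h after the gonadotropin surge was triggered or estrus was shown according to the protocol, and about 20 h according to the sample labels. Every cow received gonadotropin-releasing hormone (GnRH) and then prostaglandin F2 alpha to synchronise follicle growth. Cows without estrus received a second GnRH injection and fell into the small classification (largest follicle up to 11.7 mm) or the large classification (at least 12.7 mm), whereas cows of the spontaneous classification (11.7 to 14 mm) showed estrus, had an endogenous surge and received no second injection. Each library came from 1 pool of 4 oocytes, or of the CC of 4 complexes, so that differences between single animals within a pool could not be seen, and follicle class was confounded with the source of the surge wherever the spontaneous class was compared.

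Oocytes were represented by 6 small, 6 large and 4 spontaneous pools, and CC by 6 small, 6 large and 5 spontaneous pools. Reads on genes numbered 7664375 to 17934916 per oocyte library and 1911600 to 5772431 per CC library, so that 3 reads, the upper limit that a count of 0 allows, were worth 0.167 to 0.391 CPM (reads per 1000000 reads on genes) in oocytes and 0.52 to 1.57 CPM in CC. Summed over 10 oocyte markers fixed in a list, such as GDF9 and ZP2, the oocyte libraries had 7367 to 11345 CPM, whereas the CC libraries, in whose table only 6 of the 10 had a row, had 0 to 7.83 CPM. Summed over 15 cumulus and granulosa markers, the CC libraries had 3993 to 9973 CPM and the oocyte libraries 193 to 777 CPM, so both sets of libraries carried the markers of their label, although some granulosa markers were low in CC (FOXL2 at a mean of 0.476 CPM and CYP19A1 at 7.17 CPM). Of the cumulus and granulosa list, HAS2 and CD44 had higher means in oocytes (193 and 18.9 CPM) than in CC (75.5 and 6.06 CPM), and without them the oocyte libraries had 47.5 to 513 CPM. The theca list summed to 258 to 505 CPM in the oocyte and 113 to 1193 CPM in the CC libraries, which were not separated by it. These sums came from different genes. STAR had a mean of 370 CPM in oocytes and 24.4 CPM in CC, whereas INSL3 had 18.9 and 410 CPM. LHCGR had 0.00528 and 7.39 CPM, and CYP17A1 0.473 and 0.183 CPM.

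NOBOX and LHX8 are homeobox proteins required for the growth of the oocyte out of the primordial follicle, and FIGLA, SOHLH1 and SOHLH2 are basic helix-loop-helix proteins of the early oocyte, FIGLA being best known for switching on the zona pellucida genes. POU5F1 (OCT4) is carried by the germ line and by pluripotent cells of the embryo, and TBPL2 is an oocyte relative of the TATA-binding protein that takes its place in the basal transcription machinery of growing oocytes. Fully grown oocytes near ovulation transcribe little, and most of their mRNA is a store laid down during growth.

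All 5 listed factors were detected in each of the 16 oocyte pools, and all 5 passed the filter used for testing, a level of 5 CPM or more in 4 or more of the oocyte pools, which retained 10076 transcripts. None of the 5 differed between follicle classes at the threshold used, a nominal p of 0.01 or less by limma's moderated test. FIGLA had its highest mean in spontaneous pools and POU5F1 its lowest mean in large pools, but the ranges of the classes overlapped for every factor in every comparison. Over all retained oocyte transcripts the classes did not overlap for 0.258% between small and large, 0.903% between small and spontaneous and 0.913% between large and spontaneous. In CC, NOBOX and TBPL2 were at or near 0.

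**Figure D1:**
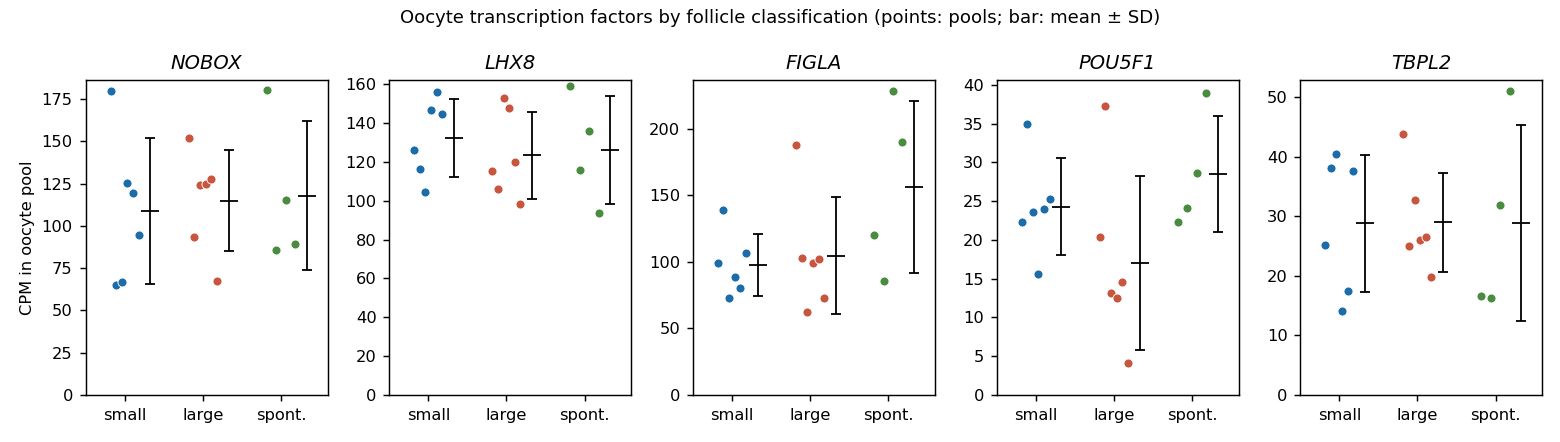
Level in CPM (vertical axes, each starting at 0) of the 5 listed factors in every oocyte pool, by follicle class. Points are pools and the bars beside them are class means with SD. The classes overlap for all 5 factors, FIGLA has 2 high spontaneous pools and 1 high large pool, and the lowest POU5F1 value is a large pool at 4.06 CPM.

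The homeobox gene NOBOX (ENSBTAG00000009832) was present at 113 ± 36.4 CPM (SD, n = 16 oocyte pools), from 512 to 2720 reads per pool. In small pools its lowest, median and highest levels were 64.9, 107 and 180 CPM, and in large pools they were 67.1, 124 and 152 CPM. The spontaneous pools had 181, 85.6, 116 and 89.5 CPM in replicates 1 to 4. The highest small and the highest spontaneous pool were thus nearly equal, and the other 3 spontaneous pools lay within the range of both other classes. Small pools had a mean of 109 ± 43.2 CPM (n = 6), large pools 115 ± 29.9 (n = 6) and spontaneous pools 118 ± 43.9 (n = 4). The change from small to large was 0.12 on the log2(CPM + 1) scale (SE 0.248, 95% interval -0.38 to 0.63, limma p = 0.619, exact permutation p = 0.703), and spontaneous pools differed from large ones by 0.02 (SE 0.258, interval -0.51 to 0.55, exact permutation p = 0.881). The change from small to spontaneous was 0.14 (SE 0.293, interval -0.46 to 0.74, limma p = 0.63, exact permutation p = 0.733), so that all 3 changes were smaller than their standard errors.

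LHX8 (ENSBTAG00000019192), the LIM-homeobox factor, had 127 ± 21.7 CPM over the 16 oocyte pools and was the steadiest of the 5. Its lowest, median and highest levels were 104, 135 and 156 CPM in small pools and 98.1, 118 and 153 CPM in large pools. Spontaneous pools had 159, 116, 136 and 93.6 CPM, and thus contained both the highest and the lowest of all 16 values. The coefficient of variation within classes was 18%, against a median of 45.7% over retained transcripts, and 7.92% of those transcripts varied less. Large pools differed from small ones by -0.11 on the log2 scale (SE 0.189, interval -0.49 to 0.28, limma p = 0.577, exact permutation p = 0.459). Its changes to spontaneous pools were -0.08 against small (interval -0.56 to 0.39) and 0.02 against large (interval -0.43 to 0.48).

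FIGLA (ENSBTAG00000008905), the basic helix-loop-helix activator of zona pellucida genes, had 115 ± 47.8 CPM over all oocyte pools with means of 97.7 ± 23.4 CPM in the small, 105 ± 44.1 in the large and 156 ± 64.8 in the spontaneous class. Its lowest, median and highest levels were 72.8, 93.9 and 139 CPM in small pools and 62.5, 101 and 188 CPM in large pools. Spontaneous replicates 1 to 4 had 120, 85.7, 228 and 190 CPM. Replicates 3 and 4 lay above every small and large pool, whereas replicates 1 and 2 lay inside the range of both other classes.

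Between small and spontaneous oocytes the fold change of FIGLA was 1.52 (95% interval 1.03 to 2.24), a log2 change of 0.60 (SE 0.274, limma p = 0.0365, adjusted p = 0.987 over all retained transcripts, exact permutation p = 0.0667, two-sided, 6 against 4 pools). Without small replicate 3, the shallowest oocyte pool, the limma p was 0.0755 and the exact permutation p was 0.135. Between large and spontaneous oocytes the log2 change was 0.56 (SE 0.287, interval -0.03 to 1.15, limma p = 0.06, exact permutation p = 0.162), and between small and large it was 0.04 (SE 0.242, interval -0.46 to 0.53, exact permutation p = 0.784). The size rested on single pools. Without spontaneous replicate 2, the lowest of its class, the change was 0.85 against small pools (limma p = 0.00476, exact permutation p = 0.0238) and 0.82 against large pools (limma p = 0.00926, past the threshold, exact permutation p = 0.0595). Without spontaneous replicate 3 the changes were 0.39 (exact permutation p = 0.202) and 0.35 (exact permutation p = 0.429). Spontaneous replicate 3 also had the third highest sum of cumulus and granulosa markers among the 16 oocyte pools, 627 CPM (377 CPM and the same rank without HAS2 and CD44), and the part of this in the FIGLA values was not tested.

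POU5F1 (ENSBTAG00000021111), the POU-domain factor of germ and pluripotent cells, had 22.6 ± 9.45 CPM over the 16 pools, from as few as 48 reads in 1 pool to 698. Its lowest, median and highest levels were 15.5, 23.8 and 35.0 CPM in small pools and 4.06, 13.9 and 37.3 CPM in large pools. Spontaneous pools had 22.2, 24.1, 28.7 and 38.9 CPM. In large oocytes, replicates 3 to 6 lay below every small and spontaneous pool, while large replicate 2 lay above every small pool, so the large class held both the lowest values and one of the highest.

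Class means of POU5F1 were 24.3 ± 6.27 (small), 17 ± 11.2 (large) and 28.5 ± 7.47 CPM (spontaneous). From small to large the log2 change was -0.70 (SE 0.452, interval -1.62 to 0.23, limma p = 0.134, exact permutation p = 0.197). Spontaneous pools differed from large ones by 0.92 (SE 0.513, limma p = 0.0833, exact permutation p = 0.105), a fold change of 1.90 with an interval of 0.914 to 3.94. Small and spontaneous pools differed by 0.23 (SE 0.435, interval -0.66 to 1.12, exact permutation p = 0.343). Without large replicate 2 the change from small to large was -0.96 (limma p = 0.0484, exact permutation p = 0.0108) and the difference of spontaneous from large pools was 1.19 (limma p = 0.033, exact permutation p = 0.0159), neither past the threshold of limma. Without large replicate 6 they shrank to -0.38 (limma p = 0.37, exact permutation p = 0.355) and 0.61 (limma p = 0.2, exact permutation p = 0.19), so the sizes rested on these 2 large pools. Large replicate 6, with the lowest POU5F1, also had the highest sum of cumulus and granulosa markers among oocyte pools (777 CPM, or 513 CPM without HAS2 and CD44) and the lowest sum of oocyte markers in its class (7610 CPM). Their part in its POU5F1 level was not tested. Every oocyte library came from 4 oocytes, whereas the amount of CC RNA in it was not measured. In such bulk RNA, the number of remaining CC and the RNA per cell cannot be told apart.

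TBPL2 (ENSBTAG00000018277), the oocyte member of the TATA-binding protein family, had nearly equal class means: 28.8 ± 11.5 CPM (small), 29.0 ± 8.34 (large) and 28.9 ± 16.4 CPM (spontaneous). Its lowest, median and highest levels were 14.1, 31.3 and 40.4 CPM in small pools and 19.8, 26.2 and 43.7 CPM in large pools. Spontaneous pools had 16.5, 16.2, 31.9 and 51.0 CPM, so that this class held 2 pools near the bottom of the range and also the highest value of all. The 3 log2 changes were 0.07 from small to large (SE 0.366, interval -0.68 to 0.82), -0.05 from small to spontaneous (SE 0.472, interval -1.02 to 0.92) and -0.12 from large to spontaneous (SE 0.42, interval -0.98 to 0.74). The near equality of the means was thus accompanied by intervals that did not exclude a change of over 1.5 times in either direction.

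In all, 0 of the 15 comparisons (5 factors in 3 pairs of classes) met the nominal threshold, 1 had an unadjusted limma p under 0.05 and the smallest adjusted p was 0.968. edgeR and DESeq2 on recovered reads likewise called 0 of the 15. Over all retained oocyte transcripts limma called 66 (0.655%) between small and large, 78 (0.774%) between small and spontaneous and 95 (0.943%) between large and spontaneous, so a count of 0 among 5 members was near what the whole table gave. None of the retained transcripts of these comparisons passed an adjusted p of 0.05 by limma, while 414 (4.11%), 454 (4.51%) and 491 (4.87%) had an unadjusted p under 0.05. The 15 log2 changes ran from -0.70 to 0.92, and over all their 95% intervals the fold change was bounded by 0.325 and 3.94. In no factor did the gap between neighbouring class means exceed the larger of the 2 SDs, which describe single pools. By their means the classes ran spontaneous, large, small for NOBOX and FIGLA. They ran small, spontaneous, large for LHX8 and spontaneous, small, large for POU5F1. No full order was resolved, since the 95% interval of every change but that of FIGLA from small to spontaneous pools included 0.

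**Figure D2:**
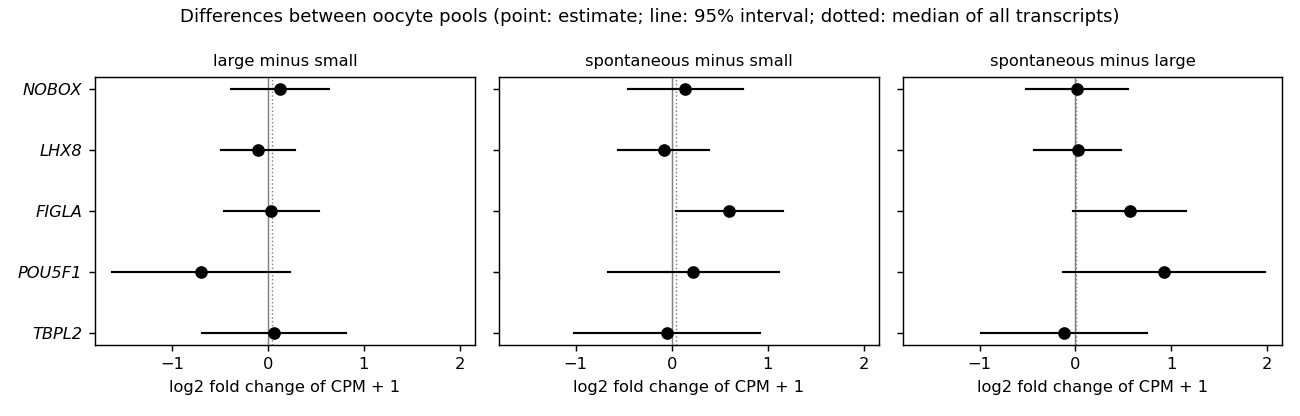
Change between follicle classes in oocytes, as the difference on the log2(CPM + 1) scale (horizontal axis), for the 5 listed factors in the 3 comparisons. Points are limma estimates, bars are 95% intervals, and the interval of FIGLA between small and spontaneous pools, 0.04 to 1.16, is the only one that leaves out 0.

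The factors did not vary alike from pool to pool. Within classes the coefficient of variation was 34.3% for NOBOX, 38.2% for FIGLA, 38.7% for POU5F1 and 40.9% for TBPL2, and 34.9% to 44.1% of the retained transcripts varied less than these 4. Counting error alone gave 2.54% for LHX8, 2.82% for NOBOX, 2.85% for FIGLA, 5.61% for TBPL2 and 6.99% for POU5F1, all of them well below the spread between pools. The highest pool was above the lowest by 1.70 times for LHX8, 2.78 times for NOBOX, 3.6 times for TBPL2, 3.65 times for FIGLA and 9.59 times for POU5F1. The highest pool was spontaneous replicate 1 for NOBOX and LHX8, spontaneous replicate 3 for FIGLA and spontaneous replicate 4 for POU5F1 and TBPL2. For NOBOX and LHX8 a small pool came within 3 CPM of it. How often other retained transcripts peaked in a spontaneous pool was not counted, so these maxima are given as a description.

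Over the 16 oocyte pools, which share library preparation and depth between genes and whose classes were pooled for this description, 5 of the 10 pairs of factors had a positive Pearson correlation of log2(CPM + 1) and 5 a negative one. The homeobox pair NOBOX and LHX8 had the highest, r = 0.607 (Spearman's rho = 0.588, r = 0.567 without the 2 farthest pools and 0.654 after class means were removed). Only 0.943% of the other retained transcripts had as high a correlation with NOBOX, and 0.734% with LHX8. FIGLA went with POU5F1 at r = 0.517 (rho = 0.532, 0.413 without the 2 farthest pools) and with TBPL2 at r = 0.470. The lowest value was that of LHX8 with TBPL2, r = -0.41, which shrank to -0.16 without the 2 farthest pools. For NOBOX and POU5F1 the coefficients differed, with r near 0 (-0.0017), rho = -0.438 and r = 0.195 without the 2 farthest pools, and NOBOX and FIGLA had r = 0.165. These are descriptions of 16 pools, and none of the pairs was tested.

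**Figure D3:**
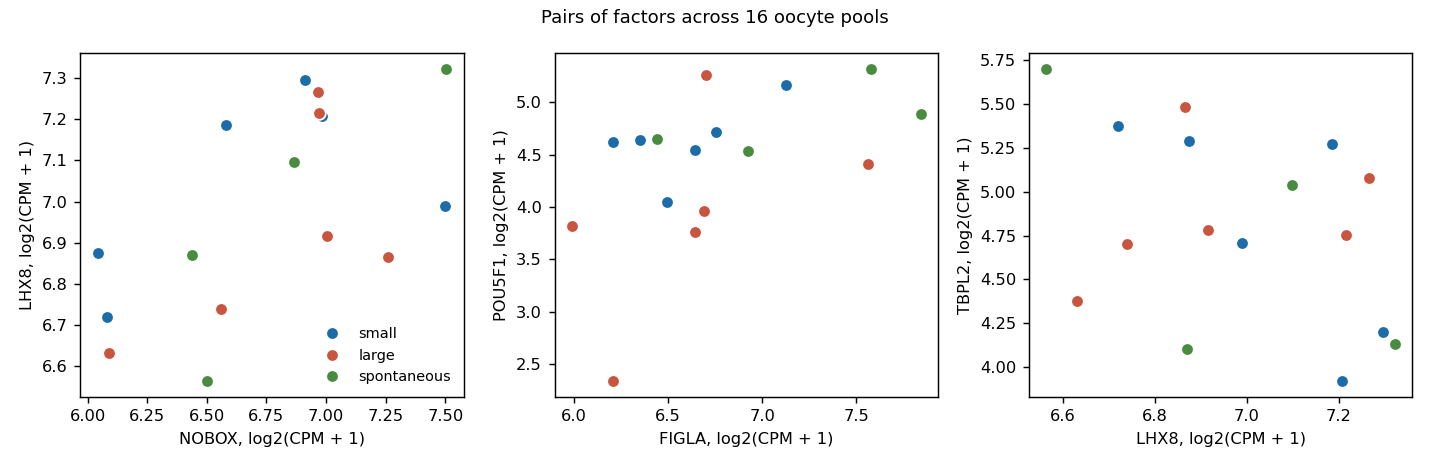
Levels of 3 pairs of factors in the 16 oocyte pools, 1 point per pool, with each axis in log2(CPM + 1) and the follicle class shown by colour. NOBOX and LHX8 rise together (r = 0.607) and LHX8 and TBPL2 run the other way (r = -0.41), with all 3 classes mixed along the cloud.

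Among 9570 other retained transcripts with a symbol, the one whose pattern over the 16 pools was most like NOBOX was TAF6, a subunit of the TFIID complex, with r = 0.794 (rho = 0.779, and 0.734 without the 2 farthest pools). For LHX8 it was RDH11, a retinol dehydrogenase, with r = 0.796, and for FIGLA it was EIF3K, a subunit of the translation initiation factor eIF3, with r = 0.832. The transcript nearest to POU5F1 was SCAMP1, a secretory carrier membrane protein, with r = 0.833, which fell to 0.643 without the 2 farthest pools. OGG1, a DNA glycosylase that removes oxidised guanine, was nearest to TBPL2 with r = 0.827. Each is the highest of 9570 correlations over 16 points and is given as a description.

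In CC the levels were far lower, and because the oocyte and CC tables were deposited and scaled separately the levels are set side by side without a test. NOBOX had a mean of 0.536 ± 0.572 CPM (n = 17 CC pools), and 36 reads in all, spread over 13 of the 17 pools. Small CC pools had 1.84, 1.85, 0, 0, 0.642 and 0 CPM in replicates 1 to 6, large pools 0.463, 1.07, 0.255, 0.586, 0 and 0.226 CPM, and spontaneous pools 0.209, 0.585, 0.363, 0.363 and 0.661 CPM in replicates 1 to 5. Most of these values lay at or under the worth of 3 reads, and the classes overlapped, so that no difference between classes could be seen at this depth. With all pools of a cell type added together, NOBOX had 114 CPM in oocytes and 0.502 CPM in CC (95% exact Poisson interval 0.351 to 0.695, for counting error only), a ratio of 227 (164 to 325).

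TBPL2 had 3 reads in CC, all of them in spontaneous replicate 5 (0.661 CPM), and the other 16 CC pools had none. The pooled level was 29.0 CPM in oocytes and 0.0418 CPM in CC (interval 0.00862 to 0.122), a ratio of 694 with a counting interval of 237 to 3365. Neither gene passed the CC filter of 5 CPM or more in 5 or more CC pools, so neither entered a test between classes there. FIGLA, LHX8 and POU5F1 had no row in the CC table, which listed only genes with at least 1 read in some CC pool, and no level was assigned to them.

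**Figure D4:**
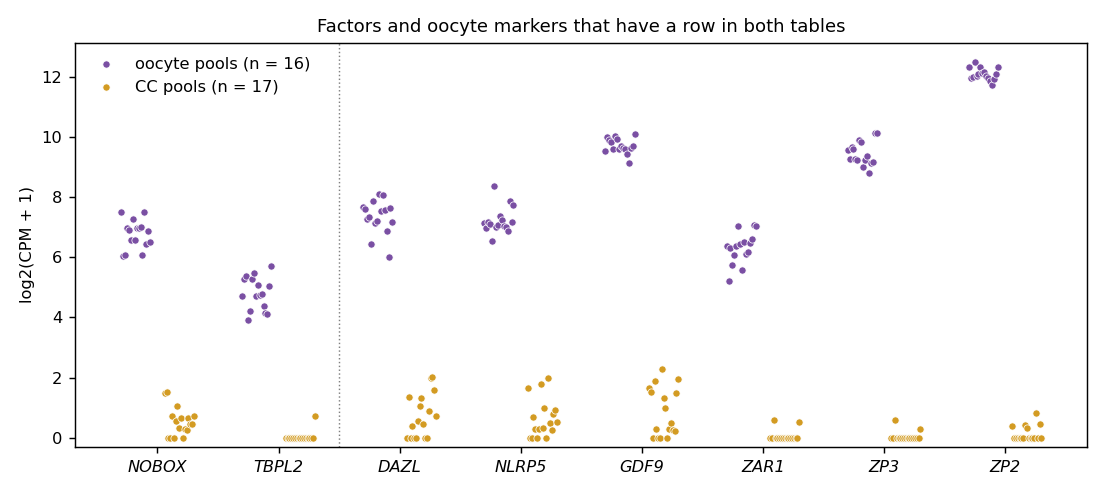
Level as log2(CPM + 1) (vertical axis) in each oocyte pool and each CC pool (points) of NOBOX, TBPL2 and the 6 oocyte markers listed in both tables. For each of the 8 transcripts the CC pools lie near 0 and far below the oocyte pools, and NOBOX has a CC mean of 0.473% of its oocyte mean.

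The CC level of NOBOX can be set beside that of transcripts that belong to the oocyte. As a percentage of the oocyte mean, the CC mean was 0.473% for NOBOX and 0.135% for TBPL2. It was 0.506% for DAZL, an RNA-binding protein of germ cells, 0.472% for NLRP5, a subunit of the subcortical maternal complex, and 0.133% for the growth factor GDF9. ZAR1 had 0.068%, ZP3 0.00601% and ZP2 0.00277%, so the share was not the same for all oocyte transcripts. Relative to the sum of the 6 oocyte markers with a row in both tables (GDF9, ZP2, ZP3, DAZL, NLRP5 and ZAR1), which does not contain NOBOX, the NOBOX level was 1.78% in oocytes, from 1.07% to 3.78% per pool, and 18.2% in CC over all pools. Per CC pool this ratio ran from 0 to 150%, with a median of 13.6%, and in 2 CC pools the sum was 0. That sum was 4784 to 7866 CPM in oocytes and 0 to 7.83 CPM in CC. In oocytes ZP2 had a mean of 4379 CPM out of 6363 CPM for the sum, whereas in CC it had 0.121 CPM out of 2.95 CPM. The percentages for oocytes and CC thus rest on sums of different make-up. Whether oocyte RNA in the CC pools gave the NOBOX reads was not tested.

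Partners of these factors and their families, genes placed downstream of them and other genes of the ovary and follicle were taken from 5 lists. Of these lists 71 transcripts were retained in oocytes and 40 in CC. Of 213 tests in oocytes 1 met the threshold and of 120 in CC 1, both with higher levels in spontaneous than in large pools. Neither passed an adjusted p of 0.05. The partners and inhibitors of the helix-loop-helix and LIM proteins had 12 retained members in oocytes and 0 calls in each comparison, and their median log2 change was 0.29 between small and large, 0.07 between small and spontaneous and -0.10 between large and spontaneous pools, where 0.05, 0.05 and 0.01 were the medians over all retained transcripts. In this group TCF3, the E protein with which FIGLA pairs, had 163 ± 36.6 CPM in oocytes, and LDB1, the adaptor that LIM proteins bind, had 102 ± 29.0 CPM. ID3, an inhibitor that holds E proteins away from DNA, had 876 ± 286 CPM in oocytes and 11.7 ± 8.87 CPM in CC, in tables scaled separately. Its relative ID2 had the largest difference of the list, 6.5 ± 5.57 CPM in small and 27.3 ± 24.0 in spontaneous pools, a log2 change of 2.14 (limma p = 0.0142, adjusted p = 0.987, exact permutation p = 0.0286) that was not called. In CC, ID2 had 133 ± 61.3, 123 ± 38.6 and 94.0 ± 18.2 CPM in the small, large and spontaneous classes, above its oocyte levels, and the part of CC RNA in the oocyte values was not tested. ID2 was named after its values were seen.

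The list of the TATA-binding protein family with its TFIIA and TFIID partners had 18 retained members in oocytes and median log2 changes of 0.01, -0.05 and -0.06 in the same order of comparisons. TBPL1, another relative of the TATA-binding protein, had 641 ± 87.6 CPM in oocytes, and GTF2A1L, the germ-cell form of a TFIIA subunit, had 34.2 ± 16 CPM in oocytes and 0.961 ± 0.927 CPM in CC. TBP itself had no row under its symbol in either table. Because some listed genes had no symbol, no level was assigned to it. The single call in oocytes was TAF10 (ENSBTAG00000000694), a TFIID subunit, which had 23.4, 7.56, 33.6 and 45.4 CPM in spontaneous pools and 1.18 to 12.6 CPM in large pools. The ranges overlapped through spontaneous replicate 2. The mean rose from 6.61 ± 4.68 to 27.5 ± 16.1 CPM, a log2 change of 1.93 (SE 0.645, interval 0.61 to 3.25, limma p = 0.0059, adjusted p = 0.968, exact permutation p = 0.0143). It was named after its values were seen, and it no longer met the threshold without any 1 of 6 of the 10 pools (limma p of up to 0.0355 and exact permutation p = 0.0357 without spontaneous replicate 4). Over all pools TAF10 had 29.6 ± 6.41 CPM in CC and 12.3 ± 11.9 CPM in oocytes, in tables scaled separately. Its CC means were 31.2 ± 4.96 CPM in large and 24.9 ± 3.74 CPM in spontaneous pools, a difference that was not called. The part of CC RNA in the oocyte values of TAF10 was not tested.

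TAF4B, a TFIID subunit enriched in gonads, was the single call in CC (ENSBTAG00000004257). It had 27.6, 32.4, 27.0, 27.0 and 23.8 CPM in spontaneous pools and 16.6 ± 3.47 CPM in large pools, with no overlap. The log2 change was 0.72 (SE 0.218, interval 0.26 to 1.18, limma p = 0.0042, adjusted p = 0.567, exact permutation p = 0.00216, at the limit of that test for 6 and 5 pools), and the median over all retained CC transcripts was 0.11. In that comparison limma called 161 of the retained transcripts (1.66%), and 0.865% had classes without overlap. Without large replicate 1 the limma p of TAF4B was 0.0113 and without spontaneous replicate 2 it was 0.0156 (exact permutation p = 0.00794 and 0.00476), so limma's threshold was not met without either pool. In oocytes the same comparison went the other way, with 43.5 ± 21.8 CPM for large and 23.6 ± 12.4 CPM for spontaneous pools, a log2 change of -0.88 (SE 0.414, limma p = 0.0424, adjusted p = 0.968, exact permutation p = 0.11) that was not called, and the difference between cell types was not tested. From small to large, TAF4B in oocytes went from 20.4 ± 16.9 CPM in small to 43.5 ± 21.8 in large pools, a log2 change of 1.26 (limma p = 0.00663 and exact permutation p = 0.0476 with all pools, limma p = 0.0125 without small replicate 3), which did not meet the rule that both values be at most 0.01. Both oocyte changes of TAF4B depended on single pools. From large to spontaneous the change was -0.67 without large replicate 4 (limma p = 0.133, exact permutation p = 0.119). From small to large it was 1.05 without large replicate 4 (limma p = 0.0296, exact permutation p = 0.0952) and 1.59 without small replicate 4 (limma p = 0.000705, exact permutation p = 0.00866). TAF4B was likewise named after its values were seen.

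**Figure D5:**
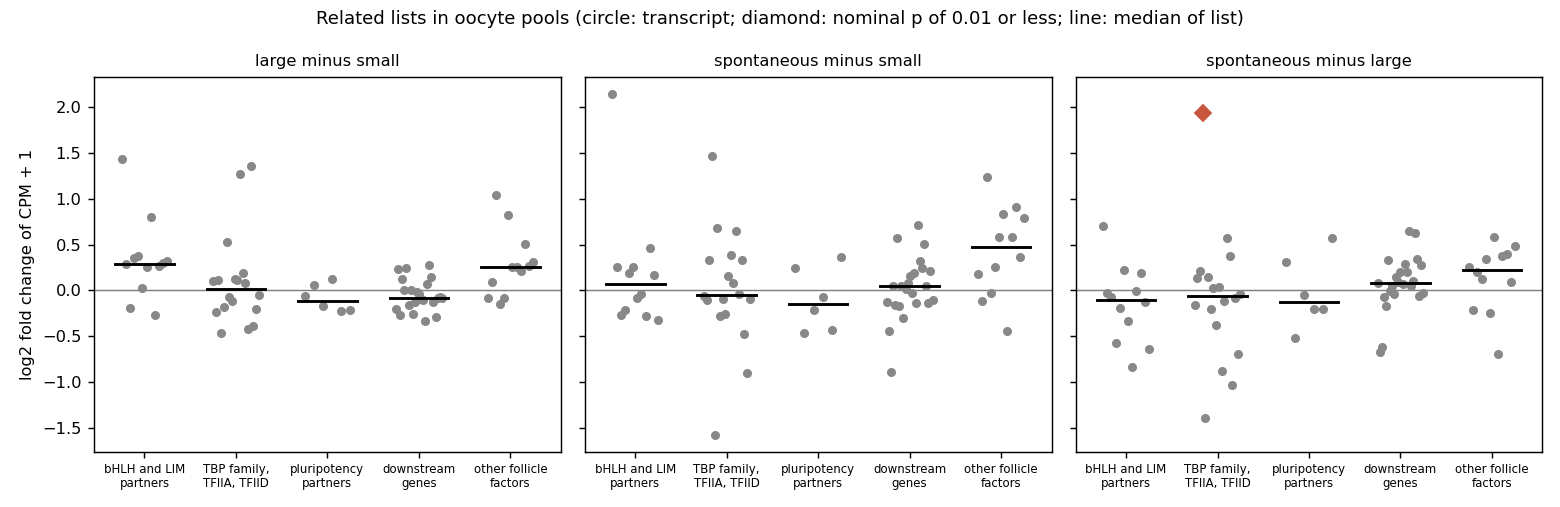
Difference on the log2(CPM + 1) scale (vertical axis) between follicle classes for each retained transcript of the 5 lists in oocytes (circles), with a line at the median of each list. The list medians run from -0.15 to 0.47, and TAF10 between large and spontaneous pools, at 1.93 (diamond), is the one that met the threshold.

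Of the pluripotency partners of POU5F1, 14 of 18 had a row in the oocyte table and 6 were retained, with 0 calls and median changes of -0.11, -0.15 and -0.13. SOX2, which binds DNA together with POU5F1, had 55.3 ± 22.9 CPM in oocytes and no row in the CC table, and KLF4 had 23.2 ± 11 CPM. NANOG had no row under its symbol in either table. The small and spontaneous means of SOX2, 60.1 ± 20.3 and 50.5 ± 31.6 CPM, differed by less than either SD, as did those of POU5F1.

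The list of transcripts placed downstream of the factors was retained for 23 of its 25 members, with 0 calls in each comparison and medians of -0.08, 0.05 and 0.08. Zona pellucida transcripts, targets of FIGLA, were abundant, at 4379 ± 625 CPM for ZP2, 763 ± 150 for ZP4 and 728 ± 209 for ZP3. Between small and spontaneous pools, where FIGLA had a log2 change of 0.60, the changes were -0.14 for ZP2 (SE 0.119), 0.21 for ZP3 (SE 0.183) and -0.10 for ZP4 (SE 0.167). Of the transcripts linked to NOBOX, the growth factors GDF9 and BMP15 had 844 ± 142 and 1586 ± 207 CPM, and MOS, the kinase that holds the mature oocyte in metaphase, had 263 ± 71.1 CPM. DPPA3, a maternal chromatin protein, had 2067 ± 349 CPM in small, 2055 ± 200 in large and 1828 ± 173 CPM in spontaneous pools. From small to spontaneous its log2 change was -0.16 (SE 0.128, limma p = 0.213, exact permutation p = 0.248), which was not called. DPPA3 was named after its values were seen.

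The list of other transcription factors of the ovary and follicle also held ZAR1 and YBX2, which are RNA-binding proteins of maternal mRNA. It had 12 of 18 members retained in oocytes, 0 calls in each comparison and medians of 0.25, 0.47 and 0.23. Over all retained transcripts the medians were 0.05, 0.05 and 0.01. In each comparison 9 members were higher and 3 lower in the second class, against 5593, 5543 and 5129 higher of all 10076. Several members were low. NR5A2, GATA4, WT1 and OTX2 had means of 2.57 to 7.93 CPM in small and 7.14 to 15.6 CPM in spontaneous pools. The SEs of these log2 changes were 0.728 to 0.862, and GATA6 had 3.81 CPM in both classes. NR5A2 is also in the cumulus and granulosa list (263 CPM in CC, 10.4 in oocytes), and the part of CC RNA in these values was not tested. ZAR1 had 65.6 ± 18.3 CPM in small and 112 ± 23.6 in spontaneous pools, without overlap (0.903% of all retained transcripts). Its log2 change of 0.79 (limma p = 0.0109, adjusted p = 0.987, exact permutation p = 0.00476) was not called. ZAR1 was named after its values were seen. FOXO3, which holds primordial follicles dormant, had 130 ± 37.8 CPM in oocytes, with class means of 127 ± 27.3 (small), 140 ± 50.1 (large) and 119 ± 36.9 CPM (spontaneous). FOXL2, a factor of granulosa cells, had reads in 1 of the 16 oocyte pools. In CC these 5 lists had 9, 17, 1, 5 and 8 retained members in the order given, and of them TAF4B alone was called, between large and spontaneous pools. None was called between small and large or between small and spontaneous CC pools, where limma called 79 (0.813%) and 231 (2.38%) of all retained transcripts.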

How the data were processed

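The authors amplified RNA of each pool (Ovation RNA-Seq System V2), sequenced it single-end, trimmed the reads, aligned them with Hisat2 to UMD3.1 and counted them on Ensembl genes with FeatureCounts. The deposited unit is CPM, with 1 table for oocytes and 1 for CC. Whole reads were recovered for 100% of the values (tolerance 0.05 reads). Columns were matched to pools by name, with 0 unmatched. Where a symbol was missing in one table (933 genes in CC, 114 in oocytes) it was taken from the other by Ensembl identifier. After this, 1646 listed oocyte genes and 1734 listed CC genes still had no symbol. A gene that was not found by symbol could be among them. No genome of that build was used here, so no coordinates or sequences are given, and levels are not compared between genes per length.

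Transcripts that reached 5 CPM in 4 or more oocyte pools, or in 5 or more CC pools, were tested with limma 3.58.1 (trended, moderated, two-sided) on log2(CPM + 1), between 2 classes at a time and without covariates; a change on this scale understates that of low genes. A call needed a nominal p of at most 0.01, with all pools and, where small oocyte pools entered, also without small replicate 3. Benjamini-Hochberg adjusted p-values cover all retained transcripts of a comparison. Beside it, pools were permuted exactly, with the difference between class means of CPM as the statistic (two-sided); its smallest p is 0.00108 for 6 against 6 pools and 0.00476 for 6 against 4. edgeR 4.0.16 and DESeq2 1.42.0 fitted to recovered reads were alternatives, as were other scaling, filters, pseudocounts and left-out pools. The fit was tested on simulated data only for changes larger than any seen in the listed factors, in transcripts at or above the median level. It therefore does not show whether smaller changes would be found. The labels give no batch, and p-values measure the spread between pools only. Amplification of cDNA without molecular identifiers means that intervals on reads cover counting error only.

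The text names every listed factor, the transcript nearest to each by Pearson correlation, the related transcripts that met the threshold, and leading members of the 5 related lists. The factors and lists were chosen with earlier results of these data known.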

Additional observations from a re-analysis of the deposited data

Results flagged for a closer look

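FIGLA stood at 187.7 CPM in large oocyte replicate 1, while the other 5 large pools had 62.5 to 103.1 CPM, a gap of 0.676 of the range of the class. Without that pool the log2 change from large to spontaneous oocytes was 0.75 (limma p = 0.0119, exact permutation p = 0.0397), still short of the threshold of 0.01. TBPL2 stood at 0.6614 CPM in spontaneous CC replicate 5, which is 3 reads, and since the other 4 pools had 0 any read in 1 pool would have stood apart in the same way. By Dixon's criterion 25 groups were examined, 19 of a listed factor in a cell type and class and 6 of TAF10 in oocytes and TAF4B in CC, of which chance picks out about 1 in 20. TAF4B in oocytes was not among these groups. There, large replicate 4 had 86.6 CPM, while the other large pools had 26.1 to 40.3 CPM.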

How the results depend on the processing

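Of 105 alternative values of the 15 changes of the factors that kept all pools, 100 kept their direction and their side of the threshold and 5, all near 0, changed sign: TBPL2 from small to large (-0.012 with edgeR and -0.022 with DESeq2) and, with the replicate number as a block, LHX8 from small to spontaneous (0.015) and NOBOX (-0.11) and LHX8 (-0.058) from large to spontaneous. With 1 pool left out, the signs of NOBOX (-0.0034 to 0.29), FIGLA (-0.15 to 0.17) and TBPL2 (-0.11 to 0.18) changed from small to large. The same held for NOBOX (-0.084 to 0.31), LHX8 (-0.20 to 0.051) and TBPL2 (-0.37 to 0.16) from small to spontaneous, and for NOBOX (-0.21 to 0.15), LHX8 (-0.095 to 0.16) and TBPL2 (-0.44 to 0.095) from large to spontaneous. POU5F1 kept its sign, at -0.96 to -0.38 from small to large, 0.069 to 0.34 from small to spontaneous and 0.61 to 1.19 from large to spontaneous. FIGLA kept its sign to spontaneous pools, at 0.39 to 0.85 from small and 0.35 to 0.82 from large, and it was the 1 factor called (0 to 1 over left-out pools), without spontaneous replicate 2.

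The count of transcripts called over the whole table moved more. In oocytes it was 101 without a filter and 114 with DESeq2 between small and large, 123 with DESeq2 between small and spontaneous, and 148 without a filter and 181 with DESeq2 between large and spontaneous. In CC between small and large it was 121 without a filter and 137 with all 3 classes in 1 fit. In CC between small and spontaneous it was 126 with median-of-ratios scaling (78 higher in spontaneous and 48 lower, against 221 and 10 of 231) and 128 with edgeR (73 and 55), and that scaling gave 62 and 54 between large and spontaneous, against 141 and 20. Left-out pools gave 48 to 94, 49 to 133 and 75 to 144 calls in the 3 oocyte comparisons and 52 to 114, 144 to 313 and 91 to 236 in CC. Counts moved by over 1.5 times without small oocyte replicate 3 (133), spontaneous oocyte replicates 3 (49) and 2 (144), small CC replicate 5 (52) and spontaneous CC replicates 5 (144 from small, 100 from large) and 4 (91).

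Same-numbered pools did not deviate together (correlations of -0.13 to 0.14 in oocytes and -0.19 to 0.22 in CC), so the numbers were not taken to pair pools. With the replicate block the calls were 50, 41 and 67 in oocytes and 96, 260 and 151 in CC. TAF10 and TAF4B, alternatives chosen after the data were seen, no longer met the threshold under the block (1.45 and 0.70), and TAF10 also without a filter and TAF4B with all classes in 1 fit. The causes of these changes were not tested. Depth limits NOBOX and TBPL2 in CC to a few reads per pool.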
